A study of Danio rerio with 4 samples.

Results

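The first and the last stage of a series of zebrafish methylomes, 2 hpf and 24 hpf (hours post-fertilization), were compared over 1 kb windows of the nuclear genome. Windows were cut at fixed borders on the 25 chromosomes of the assembly Zv9 and kept where both libraries had at least 6 covered CpGs and at least 40 reads. This left 1132093 of the 1354664 windows that hold a CpG, which together carry 89.0% of all CpGs. The level of a window is its methylated reads over all its reads, the change is the level at 24 hpf minus that at 2 hpf, and both are in percent or percentage points. Each stage is 1 whole-genome bisulfite library of genomic DNA from whole Danio rerio embryos, and the libraries of 4 and 8 hpf were read to place the changes in time and, for 4 hpf, to set the start level in another way. No treatment or mutant allele is named for any library. Neither the strain nor the number of embryos per library is stated in the sources used. With 1 library per stage there is no replicate, so stage and library cannot be told apart and no test between the stages was made.

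DNA methylation of vertebrates sits mostly on CpGs. It is copied to the new strand after replication by Dnmt1, set anew by the Dnmt3 enzymes and removed by dilution or through oxidation by Tet enzymes. Most of the genome is methylated, whereas CpG-rich promoters and many regulatory elements near developmental genes lie in unmethylated islands and valleys. The zebrafish embryo does not pass through the genome-wide erasure known from mammals. At 2 hpf it consists of cleavage-stage cells that hardly transcribe their genome, and at 24 hpf it holds many differentiating tissues. A whole-embryo level is an average over these cells, so a few cells with a full change and many cells with a partial one cannot be told apart.

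The 2 hpf library was deeper. The compared windows held a median of 498 reads at 2 hpf and 205 at 24 hpf, and the libraries of 4 and 8 hpf had 343 and 138 reads there. Methylated reads on the mitochondrial genome, an upper limit on incomplete conversion, made up 0.853% at 2 hpf and 0.439% at 24 hpf. Intervals below are 95% intervals on reads (Wilson for a level, Newcombe for a change). They cover counting error only and are too narrow, because a read over several CpGs was counted at each of them.

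The methylome of 24 hpf was close to that of 2 hpf, and most windows were slightly lower. The mean level of the windows was 87.4% at 2 hpf and 84.7% at 24 hpf, and the median change was -2.56 points. Of all windows, 77.7% were lower at 24 hpf and 22.3% higher, while 69.7% stayed within 5 points of their start and 92.5% within 10 points. The middle 50% of changes lay between -5.14 and -0.294 points. Highly methylated windows dominated this picture, since 88.1% of all windows were above 75% at both stages. The mean change was negative on each of the 25 chromosomes, with chromosome 22 at -2.30 points and chromosome 8 at -2.91 points as the extremes. Chromosomes of 1 library are not replicates, and this range describes the 2 libraries only.

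**Figure D1:**
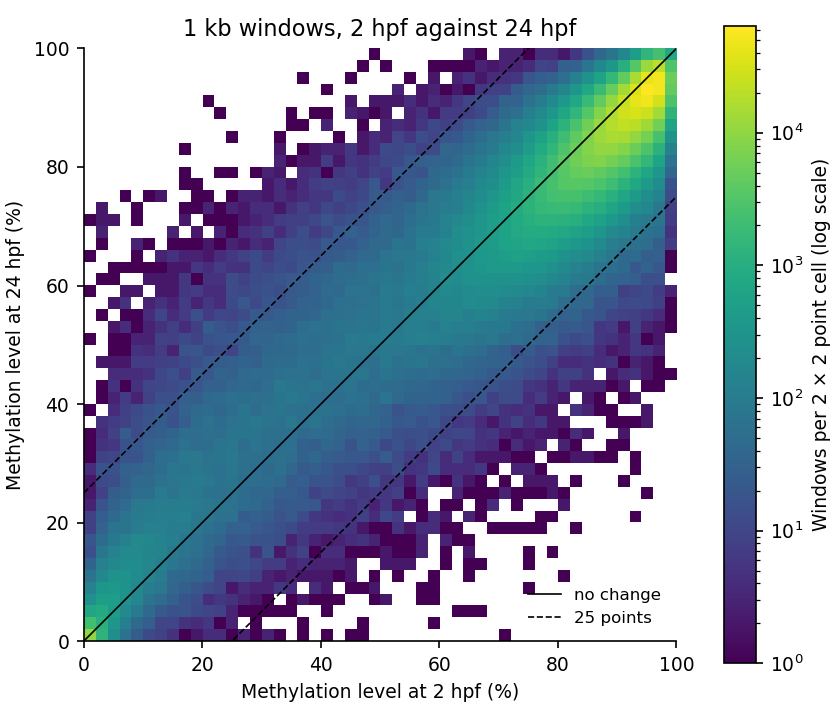
Levels of the 1132093 windows at 2 hpf (x axis, %) and 24 hpf (y axis, %), with the number of windows per cell of 2 by 2 points as colour on a log scale, the solid line at no change and the dashed lines at 25 points. Most windows sit at the top right just below the solid line, a second group sits at the bottom left, and few lie outside the dashed lines.

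The direction of the change depended on the level from which a window started. Windows under 25% at 2 hpf were on average higher at 24 hpf, those over 75% were lower, and those between lay near no net change. The 34406 windows under 25%, or 3.04% of all, had a mean level of 6.70% at 2 hpf and 10.6% at 24 hpf, a mean change of 3.89 points (SD over windows 8.10). The 1038809 windows over 75% went from 91.7% to 88.5%, a mean change of -3.16 points (SD 4.31). The 58878 windows between 25 and 75% went from 60.2% to 61.4%, a mean change of 1.17 points, with the widest spread of the 3 classes (SD 11.1). The scale is bounded, so a low window has little room below it and a high one little above, and the start class uses the same reads as the change. When the 2 hpf reads were split at random into equal parts, one to set the class and the other to give the change, the means were 3.81, 0.448 and -3.12 points from the lowest to the highest class. When the 4 hpf library set the class they were 4.06, -0.513 and -3.09 points, so the direction of the middle class was not stable while the outer classes kept theirs.

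Most of the low windows differed very little. The median change of windows under 25% was 1.02 points, far below their mean, and 69.8% of them stayed within 5 points of their start. By contrast, 15.2% were higher by 10 points or more and 3.09% by 25 points or more. Of the 25021 windows that started under 10%, 61.9% were higher at 24 hpf and 82.8% stayed within 5 points. Windows that started between 10 and 20% had a median change of 6.20 points and those between 20 and 30% one of 7.38 points. In these 2 classes 77.8% and 74.5% of windows were higher at 24 hpf. Partly methylated windows near the unmethylated end thus differed more between the stages than unmethylated windows did.

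At the other end most windows were lower. Of the windows over 75%, 80.9% were lower at 24 hpf, and the middle 50% of changes lay between -5.22 and -0.624 points. Only 5.68% of them were lower by 10 points or more. Single CpGs showed the same in finer grain. A total of 4682108 CpGs in these windows had at least 20 reads in both libraries. Their mean level was 92.9% at 2 hpf and 90.3% at 24 hpf, and 61.5% of them were lower against 32.7% higher. CpGs that were lower by 25 points or more were 1.13% of the set and carried 14.3% of its net change. Without the CpGs that moved by 25 points or more in either direction, the mean change was still -2.40 points. Most of the net change of this set was therefore not carried by CpGs that moved by 25 points or more. Smaller moves were not divided by size. The set was picked for depth, and its mean change of -2.59 points was smaller than that of the windows. The lower level of the windows over 75% was present at 24 hpf and not before. Among those with at least 20 reads in each library, the mean was 91.7%, 91.5% and 91.7% at 2, 4 and 8 hpf and 88.5% at 24 hpf.

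CpG density went with the size of the change. CpG-poor windows had the most negative mean change and CpG-dense windows the least. Windows with 6 to 9 CpGs had a mean change of -4.12 points, those with 10 to 14 CpGs -3.39, those with 15 to 24 CpGs -2.54, those with 25 to 39 CpGs -1.46 and those with 40 or more CpGs -0.508 points. The share of windows lower at 24 hpf was 80.8% in the sparsest and 64.0% in the densest class. Dense windows are more often unmethylated, so start levels were held apart. Within the windows over 75%, the mean change still went from -4.42 points at 6 to 9 CpGs to -1.22 points at 40 or more CpGs. These sparse windows held fewer reads, with a median of 110 at 24 hpf against 490 in the dense ones. Pooled reads gave another sign than the mean over windows in the densest class, with 82.4% at 2 hpf and 85.6% at 24 hpf, a change of 3.24 points. Pooling weights windows by their reads. Windows under 25% with 40 or more CpGs had a median of 0.830 times the library's mean coverage per CpG, their relative coverage, at 2 hpf and 0.479 times at 24 hpf. In the 709183 windows whose relative coverage in one library was at most 25% above that in the other, a limit chosen after seeing the data, the pooled change of the densest class was -0.913 points and its mean change -0.921 points.

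The partly methylated windows were split by CpG density. Between 25 and 75% at 2 hpf, the 14801 windows with 6 to 9 CpGs went from 63.3% to 62.0%, a mean change of -1.29 points, whereas the 2187 windows with 40 or more CpGs went from 56.2% to 64.2%, a mean change of 7.99 points. The classes between them lay in order, with 0.0131 points at 10 to 14 CpGs, 1.84 at 15 to 24 and 4.75 at 25 to 39. Of the dense ones, 74.8% were higher at 24 hpf, against 44.1% of the sparse ones. Density and start level were also separated in steps of 10 points. Windows with 40 or more CpGs that started between 20 and 30% had a mean change of 15.6 points over 340 windows, those with 6 to 9 CpGs one of 5.29 points over 501 windows. Near 0 the order was turned round, and windows under 10% had a mean change of 1.47 points in the densest and 3.43 points in the sparsest class. Over all windows under 25% the means were 2.82 and 4.49 points in the same order. Among those whose relative coverage was balanced as above they were 6.33 points over 726 windows and 4.45 points over 583 windows. The medians of these balanced windows were 1.13 and 2.60 points. The turned order was thus absent there in the means but present in the medians. Balance kept a small part of the 6048 dense windows and a larger part of the 1122 sparse ones. Balanced windows under 10% were not looked at apart, and the part of coverage was not tested. The start level at which the mean change crossed 0 also moved with density. It was negative from 50 to 60% upwards in windows with 6 to 9 CpGs, but only from 80 to 90% upwards in windows with 40 or more CpGs.

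**Figure D2:**
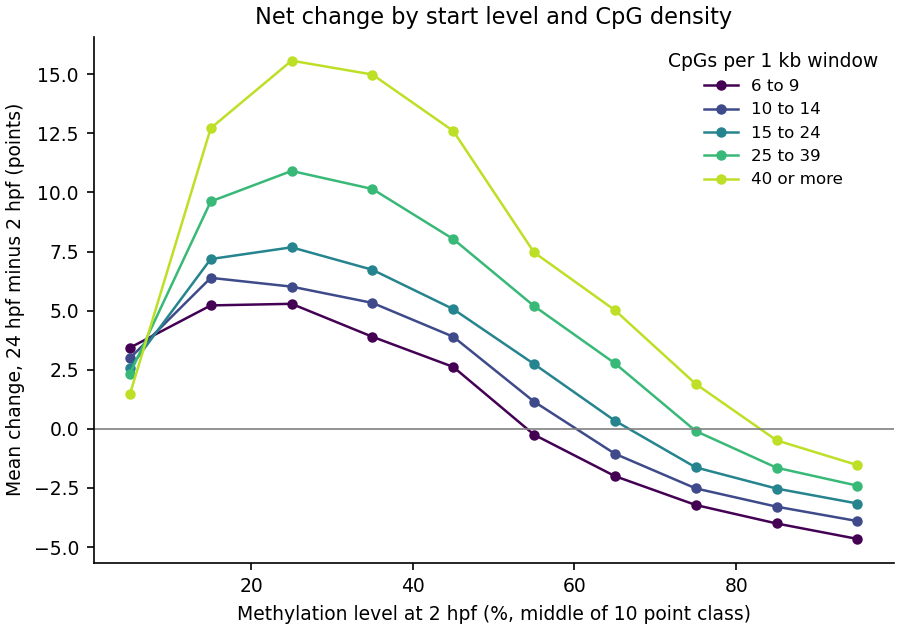
Mean change from 2 to 24 hpf (y axis, points) by start level at 2 hpf in classes of 10 points (x axis, %), with 1 line per class of CpGs in the window. The line of 40 or more CpGs peaks at 15.6 points and stays above the other lines from 10% upwards, while the line of 6 to 9 CpGs peaks at 5.29 points and ends at -4.65 points.

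Coverage moved with these classes and is given beside them. Dense windows of intermediate level had a relative coverage of 0.347 at 2 hpf and 0.427 at 24 hpf, and sparse ones 0.982 and 0.990, and the part of coverage in the contrast was not tested. Within windows of balanced coverage the mean changes of the dense and sparse windows were 7.33 and -1.29 points. With the start class taken from the 4 hpf library they were 5.41 and -2.86 points. Both values moved with the settings, and neither changed sign. With the 2 hpf library thinned to the depth of 24 hpf, the dense and sparse windows had 8.20 and -0.474 points. With the start class from a random part of the 2 hpf reads they had 7.46 and -2.24 points. Means of CpG fractions gave 9.36 and -1.01 points. At 2, 4, 8 and 24 hpf the dense windows of intermediate level had a mean of 56.0%, 53.4%, 58.5% and 64.0%, so they were lowest at 4 hpf and highest at 24 hpf. The sparse ones stood at 63.3%, 64.1%, 63.8% and 62.0% in the same order.

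Large changes were rare in both directions. A change of 25 points or more was found in 5088 windows, 0.449% of those compared. Of these, 2443 were higher at 24 hpf, 0.216% of the windows compared, and 2645 were lower, 0.234%. Relative to the median change of all windows, 3354 were higher and 1738 lower. The balance of the 2 directions thus depends on whether the small general shift is taken off. It also depended on other settings. There were 1645 higher and 1422 lower windows with 100 or more reads, and 2064 and 1765 with 10 or more covered CpGs. Means of CpG fractions gave 2697 and 2134. Lower windows stayed more frequent with a lower read minimum, CpGs covered in both libraries, thinning, high coverage left out, shifted windows or the Fisher test. Within the windows of balanced coverage there were 862 higher and 851 lower ones, or 0.122% and 0.120%. A full switch was rarer still. In all, 11 windows went from under 25% to over 75% and 12 went from over 75% to under 25%. Just under the limit, 337 windows were higher and 482 lower by 24 to 25 points, against 298 and 386 by 25 to 26 points. At the border of the read limit, windows with 40 to 49 reads changed by 25 points or more in 2.91% of cases and those with 30 to 39 reads, which were left out, in 4.12%.

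The windows that were higher and those that were lower started and ended at different levels. The higher windows had a median level of 28.1% at 2 hpf (middle 50% from 16.5% to 41.3%) and 61.9% at 24 hpf (50% to 74.2%). A total of 1062 of them started under 25% and 1381 between 25 and 75%. The lower windows had a median level of 84.7% at 2 hpf (73.2% to 92.7%) and 53.5% at 24 hpf (40.5% to 62.1%), and 1893 of them started over 75%. Of the higher windows, 1051 went from under 25% into the range of 25 to 75%, 552 went from that range to over 75%, and most others stayed inside it. Of the lower windows, 1881 entered the range from above. They also differed in CpG density, with a median of 26 CpGs in the higher and 14 in the lower windows, against 16 in the windows that changed by less. A change upwards was found in 0.635% of windows with 40 or more CpGs and 0.0850% of those with 6 to 9 CpGs. For a change downwards the shares were 0.143% and 0.366%. Start levels were not matched in these shares, and the order of dense and sparse windows depended on them. Upwards, the shares were 3.08% and 4.46% for starts under 25%, and 9.60% and 0.736% for starts of 25 to 75%. Downwards, they were 1.55% and 1.26% for starts of 25 to 75%, and 0.102% and 0.291% for starts over 75%. The coverage of the changed windows was low. Its median relative to the library's mean was 0.552 at 2 hpf and 0.547 at 24 hpf in the higher windows, and 0.848 and 0.733 in the lower windows. Windows that changed by less had 1.16 and 1.10, and the part of coverage in the changes was not tested. Over the chromosomes, the share of higher windows was least on chromosome 17 (0.136%) and greatest on chromosome 22 (0.315%), and that of lower windows least on chromosome 11 (0.168%) and greatest on chromosome 9 (0.345%).

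Within a changed window, usually only part of the CpGs passed the limit of 25 points. CpGs with at least 5 reads in both libraries were examined in windows that held 6 or more of them. In the 1816 higher windows a median of 51.6% of such CpGs were higher by 25 points or more, and a median of 84.6% were higher by any amount. In the 1853 lower windows the medians were 47.4% and 83.3%. Only 84 of the higher and 25 of the lower windows had 90% or more of their CpGs moved by 25 points or more. CpGs that moved by 25 points or more against their window were scarce, with 227 of 26104 in the higher windows and 95 of 22637 in the lower ones. A CpG with few reads is measured coarsely, so these shares depend on the depth. The windows were also chosen with the same reads and the same limit, and their median changes were 30.5 and -29.1 points. These shares are therefore no separate support for the changes. They also cannot tell an even change over all CpGs of a window from an uneven one.

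The 4 and 8 hpf libraries, which took no part in choosing the windows, place most of the change after 8 hpf. Of the higher windows, 2352 had at least 20 reads at both stages. Their median level at 2, 4, 8 and 24 hpf was 27.9%, 24.2%, 36.2% and 61.5%. Of the mean net change of 32.4 points, 23.8 points or 73.4% lay between 8 and 24 hpf, 9.03 points between 4 and 8 hpf and -0.412 points between 2 and 4 hpf. By 8 hpf, 41.9% of these windows were already higher than at 2 hpf by 10 points or more and 12.7% by 25 points or more. The 2555 lower windows had a median level of 84.8%, 82.4%, 79.4% and 53.7% at the 4 stages in the same order. Of their mean net change of -31.3 points, -24.4 points or 78.0% lay between 8 and 24 hpf, -3.57 points between 4 and 8 hpf and -3.32 points between 2 and 4 hpf. The step from 8 to 24 hpf was the largest of the 3 steps in 65.9% of the higher and 77.1% of the lower windows. The windows were picked for their levels at 2 and 24 hpf, which stretches the first and the last step but not the one between 4 and 8 hpf. The steps also span unequal times, and 8 hpf is the shallowest library, with a median of 108 reads in the higher and 88 in the lower windows.

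**Figure D3:**
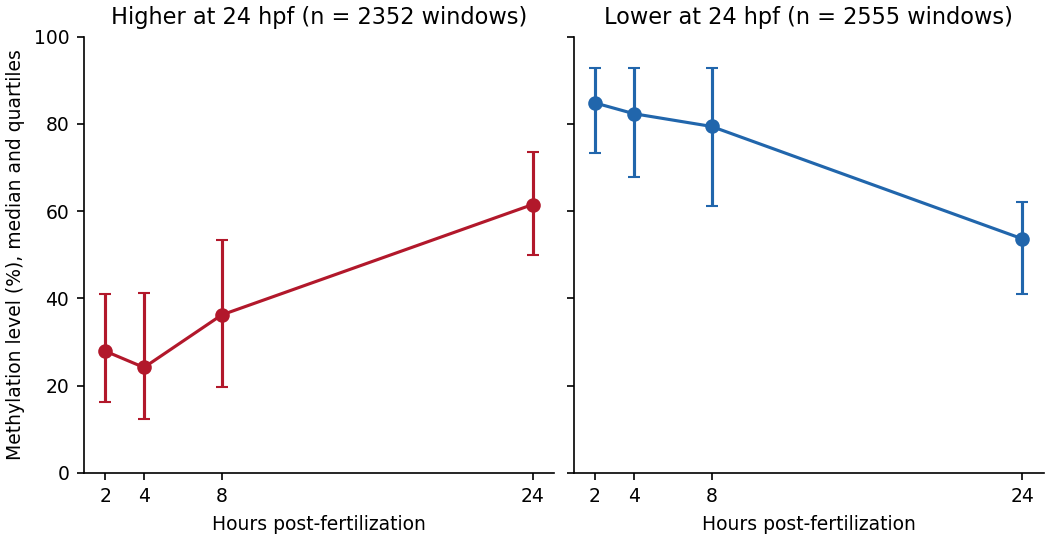
Median level (points, %) and middle 50% (bars) of the windows that changed by 25 points or more between 2 and 24 hpf, at the 4 stages (x axis, hours post-fertilization). The 2352 higher windows go from 27.9% to 36.2% at 8 hpf and 61.5% at 24 hpf, and the 2555 lower windows from 84.8% to 79.4% and 53.7%.

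Changed windows were mostly isolated, and those that were higher adjoined each other more often. The 2443 higher windows formed 2222 runs of directly adjoining windows, of which 2053 were single windows, 143 were pairs and 26 were longer, with 7 windows in the longest. The 2645 lower windows formed 2577 runs, of which 2515 were single windows, 57 were pairs and 5 were longer, with 4 windows in the longest. Runs of at least 2 windows held 16.0% of the higher and 4.91% of the lower windows, and 8.00% and 2.12% among windows of balanced coverage, where fewer neighbours were compared. Beside a higher window, 11.9% of the compared neighbours were higher too, against 0.216% of all windows. Beside a lower window, 3.15% of the neighbours were lower too, against 0.234%. Start levels were not matched in these contrasts. Windows over 75% at 2 hpf, 91.8% of all, cannot rise by 25 points, whereas neighbours of higher windows had a mean of 57.5% at 2 hpf. Among windows that started under 25%, 14.7% of neighbours were higher beside the higher ones and 1.24% beside those that changed by less. Among windows that started over 75%, 2.62% of neighbours were lower beside the lower ones and 0.197% beside those that changed by less. A neighbour of the opposite sign was seen 5 times in 3725 neighbours of higher windows. With a limit of 10 points, which 1.63% of windows passed upwards and 5.9% downwards, the shares in runs were closer, at 21.0% of the higher and 15.6% of the lower windows, and the longest runs were 8 windows up and 6 down. No run of 10 or more windows was found at either limit. A window that was not compared ends a run, so some runs may be cut short.

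**Figure D4:**
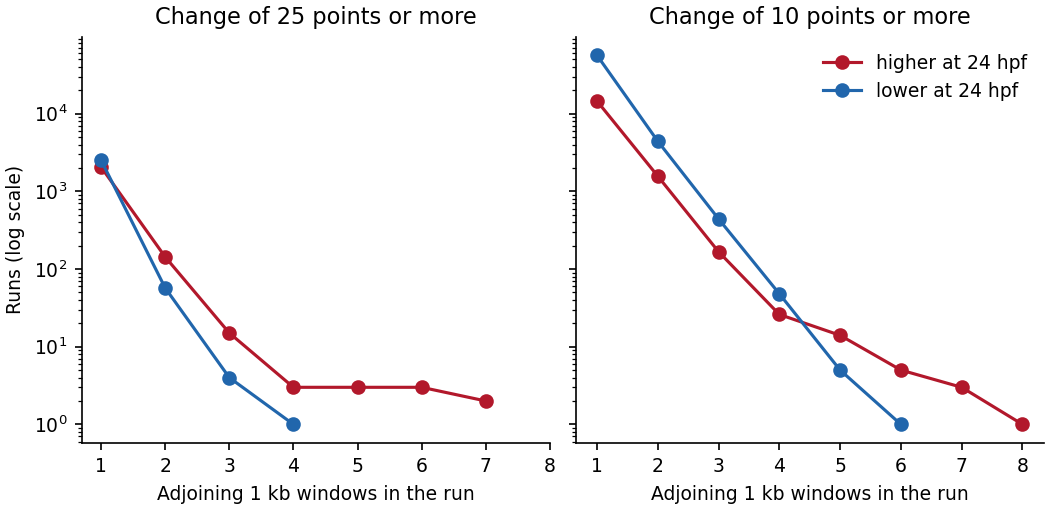
Number of runs (y axis, log scale) by the number of adjoining 1 kb windows in the run (x axis), for changes of 25 points or more (left) and 10 points or more (right). At 25 points the higher windows reach runs of 7 and the lower windows runs of 4. At 10 points lower runs outnumber higher ones up to 4 windows and higher runs reach 8.

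The surroundings of the 2 kinds of windows differed as well. Among windows with both neighbours compared, 29.7% of the 1480 higher windows had at least 1 neighbour that was under 25% at both stages, and 6.10% of the 1803 lower windows did. Both neighbours were over 75% at both stages for 15.4% of the higher and 62.6% of the lower windows. The 2 kinds start at different levels, so windows that started between 25 and 75% were compared with one another. Of these, 26.1% of the higher, 12.2% of the lower and 23.1% of the windows that changed by less had a low neighbour. A stretch of high methylation on both sides was seen for 20.6%, 49% and 44% of them. Start levels still differed inside this class. Of the windows that started at 30 to 40%, 452 were higher and 28 lower by 25 points or more. At 60 to 70%, 76 were higher and 263 lower. Start level was therefore narrowed but not matched in these shares. In the outer classes the changed windows less often had neighbours that were in the same class at both stages. Among windows that started under 25%, 34.1% of the higher ones had a low neighbour against 60.7% of those that changed by less. Among windows that started over 75%, 68.1% of the lower ones lay between high neighbours against 84.5% of those that changed by less. A neighbour that changed along with the window and left its class is not counted in these shares. Beside the higher windows that started under 25%, 14.7% of neighbours were higher too, against 1.24% beside those that changed by less. Start levels inside the outer classes were not matched. The mean change next to a higher window was 6.34 points at 1 kb and 0.829 points at 2 kb. The medians there were 1.19 and -1.54 points, below the means. Next to a lower window the means were -4.85 points at 1 kb and -3.46 points at 2 kb, and the medians -3.42 and -2.75 points. Over all windows the mean was -2.72 and the median -2.56 points, and start levels were not matched.

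The longest runs upwards were followed at all 4 stages, and levels of runs are given in the order 2, 4, 8 and 24 hpf. A run of 7 kb on chromosome 24 from 6429001 to 6436000 with 191 CpGs had 5.77%, 3.74%, 9.25% and 62.1%, a change of 56.4 points (54.5 to 58.2). It was thus under 10% at the first 3 stages. Its windows ranged from 2.02% to 16.5% at 2 hpf and from 42.4% to 74.1% at 24 hpf, without overlap, and 95 of its 111 CpGs with at least 5 reads were higher by 25 points or more. The runs named here and below were chosen for their difference between 2 and 24 hpf. Such ranges and counts of CpGs are therefore no separate support for it. The window before the run had 1.32% at 2 hpf and 1.33% at 24 hpf. The window after it had 42.5% and 61.9%. A run of 6 kb on chromosome 18 from 12922001 to 12928000 with 190 CpGs had 16.1%, 10.7%, 15.4% and 58.4%, a change of 42.3 points (40.1 to 44.4). The coverage per CpG of the run on chromosome 24 was 0.540 times the median window at 2 hpf and 1.22 times at 24 hpf, so it was not balanced, and that of the run on chromosome 18 was 0.773 and 1.01 times. The part of coverage in these changes was not tested.

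Chromosome 22 held a pair of long runs. The run of 6 kb from 5752001 to 5758000 had 28.0%, 36.2%, 17.9% and 79.6%. The other, of 6 kb from 29426001 to 29432000, had 22.7%, 14.8%, 14% and 55.4% at between 0.288 and 0.416 times the median coverage. Neither was higher at 8 hpf than at 2 hpf. The other run of 7 kb, on chromosome 4 from 61293001 to 61300000, differed from these in 2 ways. It had 2.66%, 8.31%, 38.2% and 69.4%, so it was higher at each stage than at the one before. Its coverage was 8.51, 10.6, 3.72 and 10.9 times the median window, and its part in the change was not tested. In this run 597 of its 599 CpGs with at least 5 reads were higher by 25 points or more.

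The longest runs downwards were shorter and began at intermediate levels. A run of 4 kb on chromosome 8 from 47496001 to 47500000 with 92 CpGs had 46.9%, 52.0%, 49.03% and 14.7%, a change of -32.2 points (-34.9 to -29.4). It was not lower at 8 hpf than at 2 hpf. A run of 3 kb on chromosome 12 from 3440001 to 3443000 had 51.7%, 54.1%, 39.1% and 16.7%, so part of its change was present at 8 hpf. It lay between windows of 88.8% and 88.2% at 2 hpf, which had 80.5% and 86.3% at 24 hpf. The others spanned 3 kb each. On chromosome 6 from 2164001 to 2167000 the level was 58.4% at 2 hpf and 20.3% at 24 hpf, on chromosome 8 from 2252001 to 2255000 it was 64.8% and 27.6%, and on chromosome 4 from 7734001 to 7737000 it was 52.2% and 23.5%. At 24 hpf the levels of these 5 runs lay between 14.7% and 27.6%. The run of 3 kb on chromosome 8 had only 0.159 to 0.315 times the median coverage in the 4 libraries. Of its 14 CpGs with at least 5 reads, 7 were lower by 25 points or more. The other runs downwards had between 0.493 and 1.09 times the median coverage at 2 and 24 hpf. The part of coverage in these changes was not tested. The run on chromosome 6 was also low at 4 hpf, with 37.0%, and high at 8 hpf, with 62.6%.

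**Figure D5:**
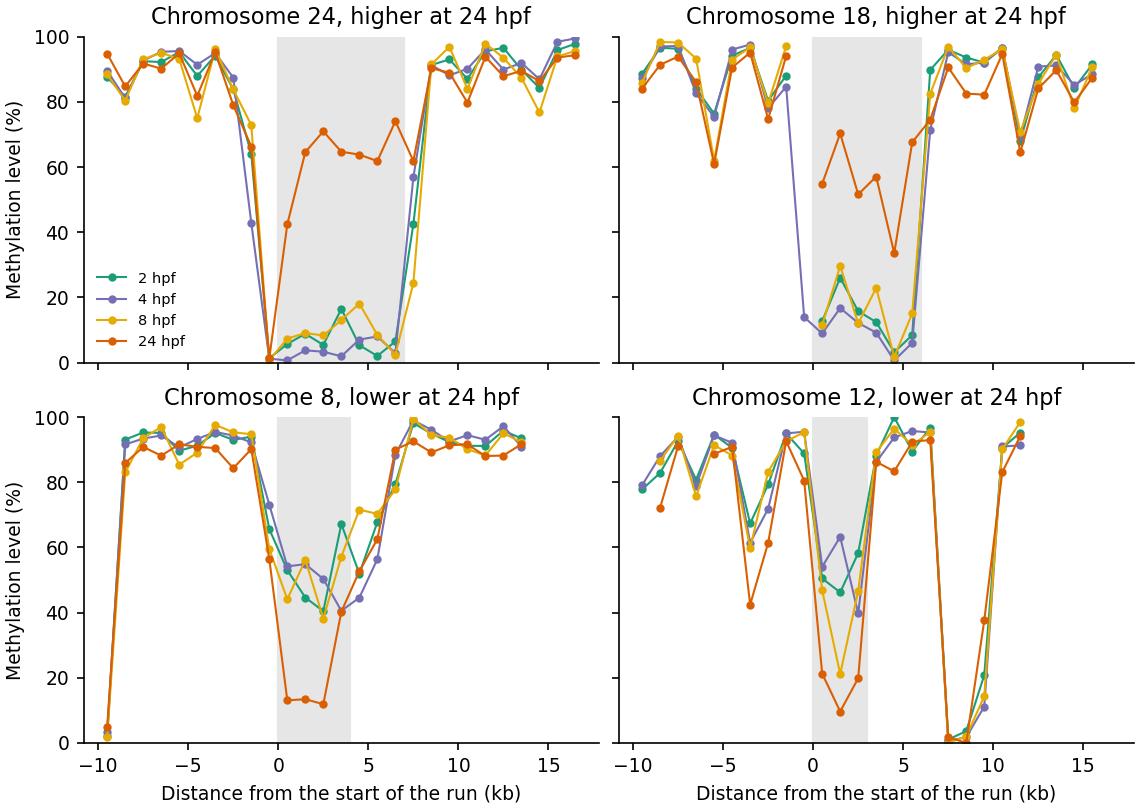
Levels of 1 kb windows (y axis, %) at 2, 4, 8 and 24 hpf over 4 of the longest runs (grey) and 10 kb on each side (x axis, distance from the start of the run). In the upper panels 24 hpf stands apart above the other stages inside the runs on chromosomes 24 and 18, and in the lower panels it lies below them on chromosomes 8 and 12, while most flanking windows lie closer together, with exceptions such as a window left of the run on chromosome 12. Windows under 20 reads are left out.

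The largest changes of single windows, taken among those with at least 100 reads in both libraries and at most 3 times the median coverage, reached 67.6 points upwards and -70.6 points downwards. Of the 5 largest upwards, 2 lay in the run on chromosome 24 described above. The next, on chromosome 15 from 565001 to 566000 with 40 CpGs, had 16.3% at 2 hpf (12.3% to 21.4%) and 82.6% at 24 hpf (74.4% to 88.6%). Its coverage was only 0.190 times the median window at 2 hpf and 0.201 times at 24 hpf. The fourth upwards, on chromosome 9 from 49087001 to 49088000, went from 17.8% to 78.3%, at 0.307 and 0.784 times the median coverage. The fifth upwards, on chromosome 25 from 19343001 to 19344000, went from 25.1% to 85.3%, at 0.177 and 0.297 times. The largest change downwards was a window on chromosome 18 from 30252001 to 30253000 with 18 CpGs. At 2, 4, 8 and 24 hpf it had 95.9%, 97.9%, 97.4% and 25.3%, on 1020, 675, 266 and 281 reads. Its neighbours had 96.8% and 94.9% at 2 hpf and 82.0% and 94.6% at 24 hpf, so a single window of highly methylated sequence was low at 24 hpf. The second, on chromosome 14 from 39093001 to 39094000, had 80.6% at 2 hpf and 10.2% at 24 hpf, on 139 and 108 reads. It had 63.6% at 4 hpf and 93.3% on 30 reads at 8 hpf, with between 0.160 and 0.379 times the median coverage. The third, a window on chromosome 19 from 30796001 to 30797000, had 75.7%, 76.4%, 90.3% and 15.2% at 2, 4, 8 and 24 hpf. Its coverage was 2.13 times the median window at 8 hpf and 0.930 times at 24 hpf. By contrast, a window on chromosome 23 from 32912001 to 32913000 was already at 45.0% at 8 hpf, between 78.5% at 2 hpf and 20.5% at 24 hpf. The fifth, on chromosome 24 from 2690001 to 2691000, went from 91.8% to 33.9% but had 35.9% at 4 hpf and 67.6% at 8 hpf, with between 0.176 and 0.208 times the median coverage in the 4 libraries. No Zv9 genome or annotation was used, so neither genes nor sequence are given for these positions.

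Gene names are given for 6 places, the baits in the 4C primer table of the study. It gives their positions to 6 significant digits with no assembly. The table lists more baits than the study's text counts as viewpoints, and all of them were read here, with positions taken as Zv9. The study describes its viewpoints as hypo-enhancers, putative enhancers of low methylation away from annotated transcription starts. A gene name is thus the label of a bait, and the levels are those of the bait's window, not of the gene or its promoter. Each bait lies in a window that was under 6% at 2 hpf. Of all windows under 25% at 2 hpf, 66.0% were higher at 24 hpf and 15.2% were higher by 10 points or more. Among those that started under 10%, these shares were 61.9% and 7.09%. The share of low windows whose interval of the change lies above 0 was not counted, so the baits cannot be set against it. In 2 of the 6 baits the interval lay above 0. These were sox5, which encodes a transcription factor of the SoxD group with roles in cartilage and neural crest, and lmx1ba, which encodes a LIM homeodomain factor of the midbrain-hindbrain boundary. The sequences below are the genomic parts of the 4C reading primers of these baits and of meis1b, whose interval includes 0, with CpGs in capitals. They are shown because they are the study's own tags of the 3 loci.
sox5: cataaCGccccaCGtggcagCGgcat
lmx1ba: gcaaaacctcccagcaaagagatc
meis1b: gCGtgatggattagcctgagatc

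The sox5 window, on chromosome 4 from 16032001 to 16033000, had 2.58% on 388 reads (1.41% to 4.68%) at 2 hpf and 16.5% on 188 reads (11.9% to 22.4%) at 24 hpf, a change of 13.9 points (8.83 to 19.99). In between, the libraries of 4 and 8 hpf gave 1.01% and 6.54%. Of its 18 CpGs with at least 5 reads in both libraries, 13 were higher and 7 of these by 25 points or more. The lmx1ba window, on chromosome 5 from 5140001 to 5141000, had 5.05% on 910 reads (3.81% to 6.68%) at 2 hpf and 18.1% on 370 reads (14.5% to 22.4%) at 24 hpf, a change of 13.1 points (9.11 to 17.5). The libraries of 4 and 8 hpf gave 2.44% and 4.57%. Here 25 of 30 CpGs were higher, 6 of them by 25 points or more. Both windows stayed below 25%, and 90.1% and 89.1% of all windows under 25% at 2 hpf had a smaller change than the sox5 and lmx1ba windows. That set includes windows with higher starts than these 2. Among windows that started under 10%, the 95th percentile of the change was 12.4 points. The meis2a window, named after a gene of the Meis homeodomain family, had 3.97% at 2 hpf and 8.27% at 24 hpf. Its change was 4.30 points, with an interval (-0.116 to 10.4) that includes 0. The windows of meis1b, of the same family, nfixb, which encodes a nuclear factor I protein, and barx1, a homeobox gene of the pharyngeal arches, changed by -0.626, -0.721 and -0.270 points. Their intervals reach from -2.69 to 2.88, from -2.52 to 1.97 and from -1.38 to 1.84 points, which bounds a change at this depth for counting error only.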

How the data were processed

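The authors mapped the bisulfite reads to Zv9 (danRer7) and deposited, per CpG with both strands joined, the read coverage and the methylated fraction of those reads. The aligner, duplicate removal and the caller were not given in the sources used here. The deposited fraction times the coverage came out whole to within 0.00124 reads and was taken as methylated reads. Over the 24222160 nuclear CpGs, reads summed to 693553384 at 2 hpf and 299121963 at 24 hpf. A window is the position (counted from 0) divided by 1000, rounded down, and CpG density is its number of listed CpGs. Coordinates are printed counted from 1. The members, classes and limits were chosen with earlier results of these data known. Loci named are the 5 longest runs and 5 largest single windows in each direction and the 6 baits of the 4C primer table. A Fisher exact test on reads with Benjamini-Hochberg adjustment served only as an alternative, since it compares 2 libraries. The steps were checked on simulated data. Tables and intervals were made in Python 3.11.15 with pandas 2.3.3 and numpy 2.4.6, the Fisher test with numba 0.67.0 and plots with matplotlib 3.10.9. The Fisher test was compared with that of scipy 1.17.1 on the simulated data. Alternatives were other read and CpG minimums, means of CpG fractions, CpGs covered in both libraries, thinning, high coverage left out, shifted windows, other sources of the start level, and, added after seeing the data, balanced coverage.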

Additional observations from a re-analysis of the deposited data

How the results depend on the processing

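Mean changes below are in points and in the order under 25%, 25 to 75% and over 75% at 2 hpf. With 20 or more reads the outer classes had 4.01 and -3.19 and windows of 6 to 9 CpGs -4.15. With 100 or more reads the classes had 3.56, 1.69 and -2.98, windows of 40 or more CpGs -0.536 and of 6 to 9 CpGs -3.98. At that limit 1645 windows were higher and 1422 lower. With 10 or more covered CpGs the classes had 3.79, 2.04 and -2.89, and 3.97% of lower windows lay in runs. Means of CpG fractions gave 3.19, 2.07 and -2.72, -0.250 for the densest and -3.69 for the sparsest windows, and 3.61% of lower windows in runs. CpGs covered in both libraries gave 3.74, 0.993 and -3.18, and -0.628 for the densest windows. Thinning 2 hpf gave 3.93, 1.64 and -3.20, and -0.538. A random part of the 2 hpf reads as start level gave 3.81, 0.448 and -3.12. The 4 hpf library as start level gave 4.06, -0.513 and -3.09, which turned the middle class, and the cause was not tested. Balanced coverage gave 4.32, 0.764 and -3.10, and -0.921 for the densest windows (pooled -0.913, turned). It left 862 higher and 851 lower windows. Their shares of the windows compared also fell, to 0.122% and 0.120% from 0.216% and 0.234%, and the part of coverage was not tested. Runs held 8.00% of these higher and 2.12% of these lower windows, where fewer windows and neighbours were compared by construction. Leaving out high coverage gave 1.24 and -3.15 for the middle and upper class. Shifted windows gave 1.13 and -3.15 there, -0.466 for the densest and -4.14 for the sparsest windows, and 3.96% of lower windows in runs. With 10 points, 21.0% and 15.6% of windows lay in runs. Relative to the median change 1738 windows were lower. Of the 5088 changed windows 5086 also passed the Fisher test, which compares 2 libraries. The test uses the reads by which these windows were chosen, so this is no separate support. At any size of change, 224455 windows or 19.8% passed it. No paired analysis was possible because each stage has 1 library. The depth of 24 hpf, a median of 205 reads per window, limits single windows, and intervals on reads are too narrow. How much libraries of 1 stage vary was not measured.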
